A study of Mus musculus with 26 samples.

Results

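The probes described here are the 150 that differed most between 7 Rag-proficient mouse T-ALL tumours (T-ALL, acute lymphoblastic leukaemia of the T lineage, grows from immature T cells). They were chosen on the intensities of these 7 arrays. After log2 and quantile normalisation of the 10 T-ALL arrays, 7790 of 46089 probes had an intensity of 500 or more on at least 2 of the 7 arrays, and the 150 of them with the largest standard deviation (SD) over the 7 arrays were taken. Levels and spreads over those 7 arrays are therefore a description and carry no test. Of the 150 probes, 87 had a gene symbol, for 78 different genes, and 63 had none and are given by probe ID.

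The series set T-ALL beside the stages through which T cells develop in the thymus. The 7 Rag-proficient tumours were F1(WB x B6/Ly5.1) and the 3 Rag-deficient tumours, numbered 8 to 10, were C57BL/6, so that strain and Rag status cannot be told apart. The labels name neither the Rag gene that is missing nor how the tumours arose. The 16 thymocyte arrays, all C57BL/6, covered early thymic progenitors (ETP, lineage- CD44+ CD25- Kit+, 2 arrays), TN2 (CD44+ CD25+, 2), TN3a (CD44- CD25+ CD28-, 3), TN3b (CD25+ CD28+, 2), TN4 (CD25- CD28+, 3), ISP, the immature single positives (CD8+ CD24+ TCRbeta-, 2), and double positive cells (DP, CD4+ CD8+, 2). No treatment and no age is given for any group. Whether the arrays of a group are separate animals is not stated, and p-values then reflect only how far these arrays differ.

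A developing lymphocyte cuts and rejoins variable segments of its antigen receptor genes with the Rag recombinase, and each resulting clone expresses its own segments. Without Rag neither T cells nor B cells make a complete receptor. A tumour sample can also hold other cells of the organ it came from, such as B lymphocytes, granulocytes or cells of a neighbouring gland. Each brings a characteristic set of transcripts.

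Tumour arrays detected 42.58% to 46.35% of probes, and thymocyte arrays 34.74% to 41.76% except TN2 replicate 2 with 21.37%. This array was dim throughout, at 137 for Kit and 148 for Il2ra, the gene of CD25, against 4018 and 2072 on the other TN2 array. The T cell markers Cd3e (7700 to 16042 for ILMN_1238847, 5696.5 to 11729 for ILMN_2784580) and Cd3d (12516 to 22452) were high in all 10 tumours. Rag1 was detected in all 10, at 674 to 5476 in Rag-proficient and 887 to 1273 in Rag-deficient tumours. Since the labels do not say which Rag gene or exon is missing, this probe does not check them. Slide 1 held tumours 1 to 3, slide 2 tumours 4 to 6, and slide 3 tumour 7 with all 3 Rag-deficient tumours.

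The SD of the 150 probes over the 7 tumours ran from 1.22 to 3.95 on the log2 scale with a median of 1.61, against a median of 0.285 for the 7790 probes with the required signal. At the edge of the choice, Ifitm6 (1.23), Ctrl (1.23) and ILMN_2539109 (1.22) were just inside, and Hp (1.20), ILMN_2772155 (1.19) and Il7r (1.19) just outside. All 150 passed the detection filter of the T-ALL fit, and 84 were detected on all 7 Rag-proficient arrays. Where 2 probes named the same gene, in 9 pairs, their correlation over the 7 tumours was 0.979 to 0.998. Over the 3 Rag-deficient arrays, which the choice did not use, the SD was above 1 for 39 of the 150 probes (26%), against 2.49% of the 7790.

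The 150 probes did not vary as 1 block. Over all 11175 pairs the median correlation across the 7 tumours was 0.137, and 14.2% of pairs were above 0.7. Average linkage on these correlations gave 15 clusters, numbered by size, of which 8 held at least 5 probes and 136 of the 150 between them. Within clusters the median correlation was 0.833. These correlations rest on 7 arrays that also chose the probes, and are a description. No tumour stood apart for all members. Tumour 7 was the highest for 36 of the 150 and the lowest for 34, tumour 3 was the highest for 33, and tumour 6 was the lowest for 42. A median of 28.1% of a member's variance over the 7 tumours lay between slides, and 142 of the 150 ranged over more than 2 log2 units within slide 1 or within slide 2 alone.

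**Figure D1:**
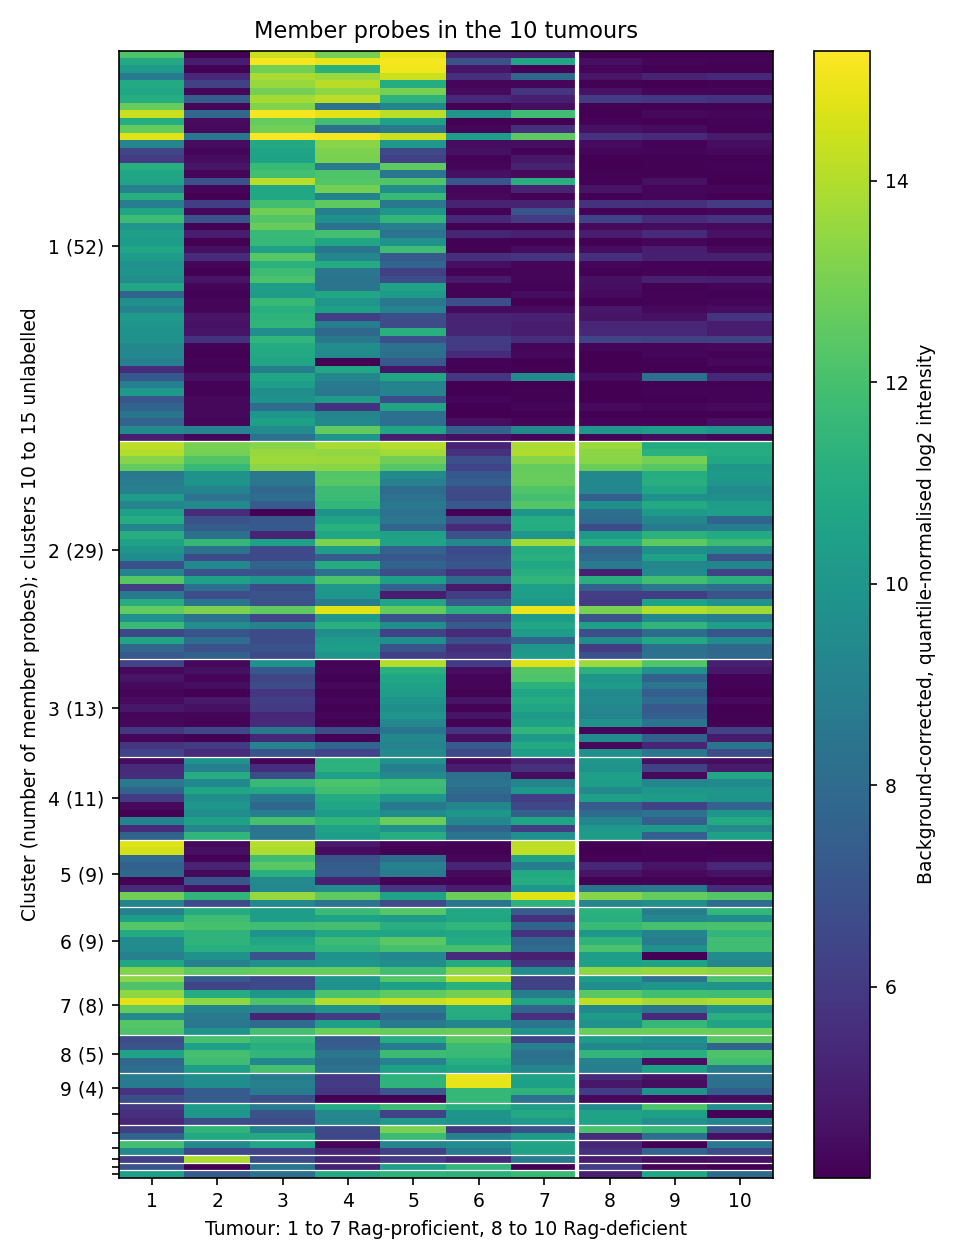
Heat map of the 150 probes (rows, ordered by cluster) on the 10 T-ALL arrays (columns), coloured by normalised log2 intensity. The 52 probes of cluster 1 are high in tumours 1, 3, 4 and 5, the 13 of cluster 3 are highest in tumour 7, and the 9 of cluster 6 are lowest there.

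Cluster 1 held 52 probes, and those with a name were mostly immunoglobulin genes, which encode antibodies. Of its 11 named probes, 9 named an immunoglobulin gene, namely Igkc, the kappa light chain constant region, with Iglv1, Igkv1-110 (2 probes each), Igkv9-124, Igkv6-23, Igkv4-62 and the heavy chain segment Ighv1-62-3. The other two named Mzb1, an endoplasmic reticulum protein of antibody-secreting B cells, and Ly6c1, a surface protein of several blood cell types. For 48 of the 52 the 4 highest tumours were 1, 3, 4 and 5. The median intensity over the 52 probes was 4039 in tumour 3, 1055 in tumour 1, 840 in tumour 4 and 598 in tumour 5. It was 120 in tumour 2, 122 in tumour 6 and 138 in tumour 7, close to the 119 to 126 of the 3 Rag-deficient tumours.

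Igkc ran from 461 in tumour 2 over a median of 18152 to 45088 in tumour 3, and was 1108 in tumour 6 and 6866 in tumour 7. In the Rag-deficient tumours it was 172, 153 and 138. Thus all 3 lay below every Rag-proficient tumour, with no overlap. The unnamed ILMN_2704562 followed it, from 325 over a median of 14054 to 40533, against 106, 122 and 121. Iglv1 (ILMN_1245146), a lambda light chain segment, showed a different order, with 26575 in tumour 5, 26215 in tumour 3, 6358 in tumour 4 and 4471 in tumour 1, and 110 to 156 in the remaining 3. Its Rag-deficient values, 99.7 to 106, were not above background. Near-identical variable segments may share signal on such probes, so a segment's name is uncertain.

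Igkc and ILMN_2704562 were the 2 members, of 150 tested, that were lower in Rag-deficient tumours by limma with Benjamini-Hochberg adjustment over all 22951 probes, and no member was higher. The share over all probes was 0.414% in either direction, 0.344% lower and 0.0697% higher. Since the choice used the signal and spread of 7 of these 10 arrays, which also enter this test, nothing is read from the members' count beside it. For the same reason the differences and p-values of single members between the tumour groups are a description. The log2 level of Igkc was 12.98 ± 2.67 (SD, n = 7) with Rag and 5.37 ± 0.39 (SD, n = 3) without it. The limma difference was -7.62 (SE 1.33, adjusted p = 0.0282). ILMN_2704562 was not detected on any Rag-deficient array, so that only a bound can be given for it, the Rag-proficient mean over the lowest level a detected probe had. It was at least 239-fold lower in Rag-deficient tumours (limma adjusted p = 0.0242). The count of 2 fell to 0 without tumour 5 and without any single one of tumours 8, 9 and 10, and to 1 without tumour 3 or 4. With slide as a block both calls were lost and 2 others were higher, ILMN_2539109 (adjusted p = 0.0186, limma) and ILMN_2738156 (adjusted p = 0.00496). The share of all probes called in that fit is not given here. Within slide 3 alone, where tumour 7 is the 1 Rag-proficient array and is assumed to vary like the others, 9 members were called and all were lower, against 0.0784% of all probes in either direction and 0.0697% lower in that fit. Tumour 7 is one of the arrays that chose the members, so nothing is read from that count either. The differences there were -7.09 for Igkc and -7.62 for ILMN_2704562.

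Of the 52 probes of cluster 1, 37 were detected on no Rag-deficient array, against 0.629% of the 7790 probes with the required signal. Members were chosen by their signal on Rag-proficient arrays, so nothing is read from this count. In RNA pooled from many cells, fewer cells of a type and less RNA per cell cannot be told apart. The B cell marker list had 4 of its 6 genes on the array, with 6 probes, and their summed normalised intensity was 8823 to 100599 in Rag-proficient and 9679 to 10863 in Rag-deficient tumours. It was highest in tumours 3 (100599), 1 (63932), 4 (50086) and 5 (46978), the same 4 as for cluster 1, and Igkc itself is on that list. Cd79b (ILMN_2610822), a signalling part of the B cell receptor, had the same 4 tumours highest, at 412 in tumour 3, 266 in tumour 4, 230 in tumour 5 and 222 in tumour 1, against 158 to 184 in the other 3 and 256 to 356 in Rag-deficient tumours. The other Cd79b probe, ILMN_2661523, had the same 4 highest, at 134 to 235 against 118 to 131. Over the 7 tumours, the correlation with the mean of cluster 1 was 0.957 and 0.936 for these probes, 0.869 for Ighm (ILMN_2744660), the mu heavy chain constant region, and -0.290 for Ms4a1, the gene of CD20. Ighm was at 33308 in tumour 3, 15057 in tumour 1 and 8201 in tumour 5, at 2900 to 5575 in the other 4 and at 4314 to 5464 in Rag-deficient tumours. Ms4a1 was at 128 to 190 against 143 to 169. Thymocytes gave signal on these Cd79b and Ighm probes too. Mean intensities per stage ran from 340 to 1539 for Cd79b (ILMN_2610822) and from 1057 to 4682 for Ighm (ILMN_2744660). The part of B cells in cluster 1 was not tested. The array held 33 immunoglobulin probes with 26 symbols, of which 29 were detected in a tumour. Among Rag-proficient tumours, tumour 3 was the highest for 23 of the 29. It had all 29 detected, against 20 in tumours 1, 4 and 5, and 9 to 12 in all other tumours.

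Among normal thymocytes Igkc and ILMN_2704562 stood out in ETP. Igkc was at 1170 and 1425 in the 2 ETP arrays and at 111 or less on the other 14. ILMN_2704562 was at 845 and 1216 against 76.0 to 101. ETP stood above all other arrays for both. Against the mean of the other 6 stages Igkc was higher by 5.67 log2 units (SE 0.268, limma adjusted p = 1.21e-08) and ILMN_2704562 by 5.48 (SE 0.277, limma adjusted p = 2.19e-08). Of the 52 probes, 19 passed the detection filter of the stage fit, 8 of these were higher in ETP, and 17 were detected on no thymocyte array. The shares were 6.39% of all probes tested and 1.14% of the 7790 probes with the required signal. Mzb1 did not share this, with its highest values in TN3a at 1321, 3152 and 3902.

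**Figure D2:**
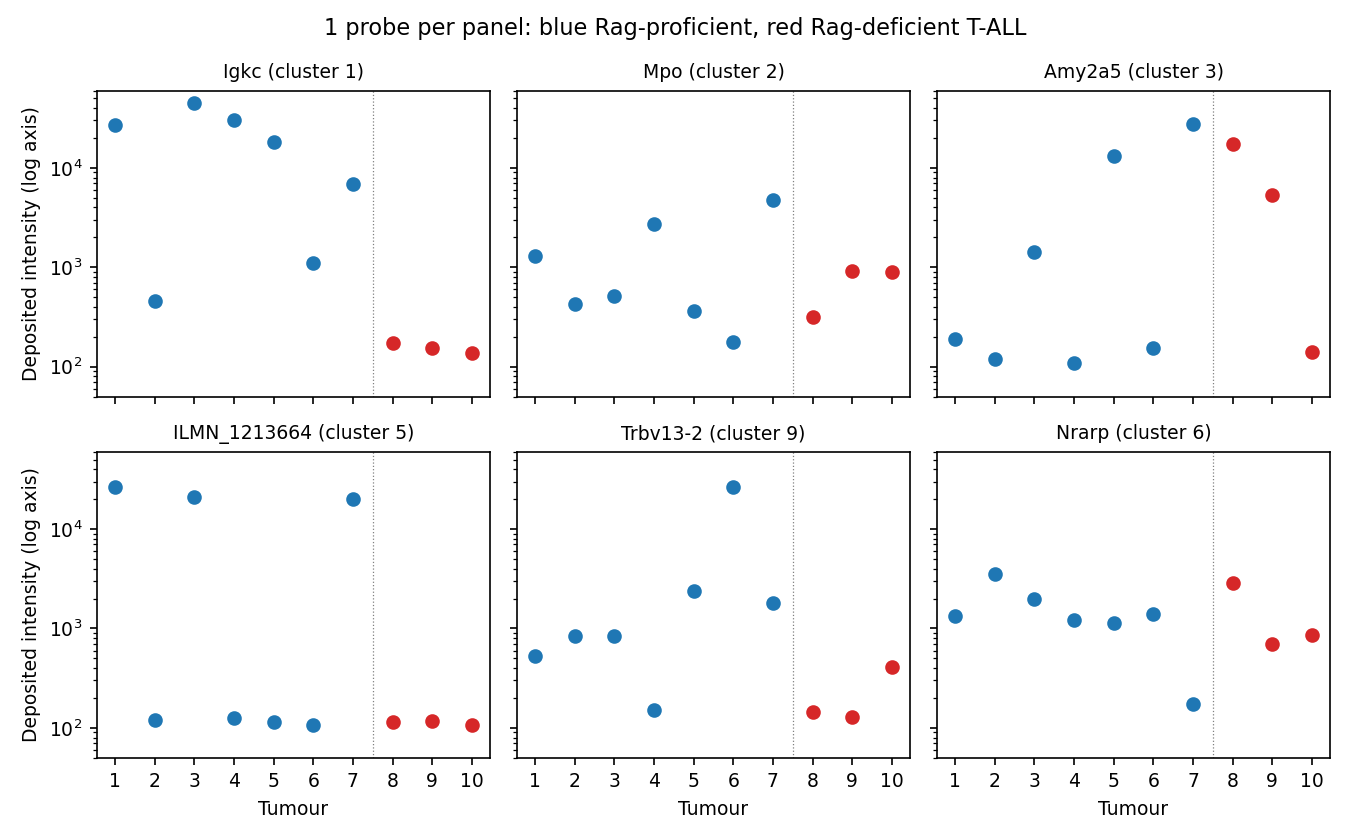
Deposited intensity (log axis) of 6 members, 1 panel each, by tumour number on the horizontal axis, with Rag-proficient tumours in blue and Rag-deficient ones in red. Igkc is at 461 or more in every Rag-proficient tumour and at 172 or less in the Rag-deficient ones, while Mpo, Amy2a5 and Nrarp overlap between the groups.

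Cluster 2 held 29 probes, 15 of them from a list of 26 neutrophil granule genes. Granulocytes store such proteins to kill microbes, and their genes are switched on in sequence while the cell matures in bone marrow. For all 15 the highest 2 tumours were 4 and 7, and for 12 of the 15 tumour 6 was the lowest. Ltf, lactoferrin, ran from 215 in tumour 6 over a median of 698 to 3911 in tumour 4 and 8000.4 in tumour 7. Mpo (ILMN_1249030), myeloperoxidase of the first granules formed, ran from 178 in tumour 6 over a median of 514 to 2694 in tumour 4 and 4793 in tumour 7. S100a8, a subunit of calprotectin, ran from 1990 over 8033 to 31992.5, with tumour 6 lowest and tumour 7 highest again. The other granule genes were Lcn2 (a siderophore-binding lipocalin), Ngp, Camp (cathelicidin), S100a9, Chil3 (a chitinase-like protein), Retnlg, Pglyrp1 (a peptidoglycan-binding protein), Stfa1, Cd177, Prtn3 (proteinase 3) and a second Mpo probe, with Ifitm6 beside them from the same list. Chil4, another chitinase-like protein, was in cluster 2 but is not on the list.

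Granule genes overlapped between the tumour groups. In tumours 8, 9 and 10 Ltf was at 861, 2214 and 1261, and Mpo at 316, 913 and 906, all within the Rag-proficient range. The difference was 0.39 log2 units for Ltf (SE 1.04, limma adjusted p = 0.938) and -0.34 for Mpo (SE 1.07, adjusted p = 0.949). The whole list of 26 genes, 45 probes, summed to 6877 to 95255 in Rag-proficient tumours, lowest in tumour 6 and highest in tumours 7 (95255) and 4 (76637), and to 17058 to 37835 in Rag-deficient tumours. Its Itgam, Mmp8 and Stfa3 were not detected in any tumour, and 20 to 22 of its genes were detected in each Rag-proficient tumour. The list was written after the members were seen. The share of granulocytes in the tumours was not tested.

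The promoters of 2 granule genes are shown because a factor family that switches on granule genes, C/EBP, binds sequences of the type TTGCNNAA. The letters are the 150 bases before the start of the gene on its own strand, from RefSeq (GRCm38.p6), with matches to TTGCNNAA on either strand in capitals. Ltf lies at chr9:111019142-111019291 (plus strand) and Ngp at chr9:110419658-110419807 (plus strand) for the stretches shown.
Ltf: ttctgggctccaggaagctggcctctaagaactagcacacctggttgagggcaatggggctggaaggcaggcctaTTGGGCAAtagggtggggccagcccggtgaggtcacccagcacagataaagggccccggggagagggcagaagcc
Ngp: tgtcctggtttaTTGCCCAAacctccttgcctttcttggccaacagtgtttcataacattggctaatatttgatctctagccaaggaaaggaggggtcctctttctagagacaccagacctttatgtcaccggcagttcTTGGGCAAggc
Of 14 granule-list promoter windows of 250 bases found in the RefSeq table, 6 held TTGCNNAA, against 9.56% of all 32851 windows. The 2 shown are among those with a match, and the windows of Mpo, Camp and S100a8 were among those without. A match is a description of the letters and not a site of binding.

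In thymocytes the granule members that differed between stages were led by Mpo and Prtn3, both high in ETP. Mpo was at 21824 and 14746 in ETP and 4646 and 212 in TN2, and from 83.0 to 108 on every later array. Prtn3 was at 415 and 406 in ETP and at 76.1 to 112 elsewhere. Both genes belong to the granules that form first. Against the other stages Mpo was higher in ETP by 8.61 log2 units (SE 0.214, limma adjusted p = 6.00e-11), the largest difference among the members, and Prtn3 by 3.91 (SE 0.220, limma adjusted p = 5.51e-08). S100a8 was at 103 and 240 in ETP and at 74.1 to 117 elsewhere. Of the 15 granule members 5 were higher in ETP, against 6.39% of all probes tested. On no thymocyte array were 7 detected, against 1.14% of the 7790 probes with the required signal. The order across tumours was shared by members with early granule products and by those absent from thymocytes.

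The remaining members of cluster 2 were not on the granule list. Among them Gm525 and Ly6d were lowest in tumour 6. Gm525 (ILMN_3137124) was at 133 in tumour 6 and at 8396 to 17378 in the other 6 tumours. Ly6d (ILMN_2803920), a surface protein of lymphoid progenitors, was at 194 in tumour 6 and at 4774 to 17000 in the others. In Rag-deficient tumours Gm525 was at 17077, 2079 and 2079, and Ly6d at 14350, 9238 and 1783. These values lay between tumour 6 and the rest or among the rest. In thymocytes both were low in ETP, Gm525 at 105 and 86.0 and Ly6d at 569 and 228, and high from TN3a on, at 756 to 2276 and 2320 to 10253, and Ly6d was also at 4471 on TN2 replicate 1. Against the other stages Gm525 was lower in ETP by -5.07 log2 units (SE 0.341, limma adjusted p = 3.17e-07) and Ly6d by -3.99 (SE 0.230, limma adjusted p = 6.95e-08). Cdkn1c, an inhibitor of cyclin-dependent kinases, and Actn2, an actin crosslinker, were in the same cluster.

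Cluster 3 held 13 probes, and 10 of them named secretory products of the exocrine pancreas. These were Amy2a5 (amylase), Cela2a (an elastase), Clps (colipase, 2 probes), Pnliprp1 (a lipase-related protein), Rnase1 (a ribonuclease), Cpa1 (a carboxypeptidase), Zg16 (a zymogen granule protein), Reg1 and Ctrl (a chymotrypsin-like protease). All 13 were the highest in tumour 7, and for 12 of the 13 tumour 5 was the next on the normalised scale. Amy2a5 was at 27356 in tumour 7, 13130.4 in tumour 5, 1412 in tumour 3 and 108 to 192 in tumours 1, 2, 4 and 6. Cela2a was at 5996 in tumour 7, 2162 in tumour 5, 324 in tumour 3 and 110 to 128 in the other 4. Tumours 7 and 5 thus stood above the rest for both genes, with tumour 3 in between.

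The same genes separated the Rag-deficient tumours, which the choice had not used. Amy2a5 was at 17216 in tumour 8, 5327 in tumour 9 and 142 in tumour 10, and Cela2a at 3215, 941 and 135. This order held for 11 of the 13 probes. The groups overlapped fully, and the difference was 1.81 log2 units for Amy2a5 (SE 2.54, limma adjusted p = 0.857) and 1.71 for Cela2a (SE 1.97, limma adjusted p = 0.819). A list of pancreatic acinar genes, written after the members were seen, had 26 of its 29 genes on the array. It summed to 56135 in tumour 7, 32147 in tumour 5, 27580 in tumour 8 and 10252 in tumour 9, to 1268 to 2751 in all other tumours, and to 682 to 964 on the thymocyte arrays. Of these genes 5 to 22 were detected in a Rag-proficient tumour, and Ctrc, Pnlip, Prss3 and Ptf1a in none. Islet and duct genes did not follow. Their 8 genes summed to 277 to 371 in Rag-proficient and 383 to 420 in Rag-deficient tumours, with Gcg, Ins2, Krt19 and Sst not detected. Whether pancreas tissue was in these samples was not tested.

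Acinar genes are driven by the factor PTF1, which binds an E-box, CACCTG, paired with TTTCCC, and promoters of 2 members are shown for these letters. The stretches are the 150 bases before the gene's start, from RefSeq (GRCm38.p6), with matches to either on both strands in capitals, of which GGGAAA and CAGGTG are the reverse strand forms. Cela2a is at chr4:141826006-141826155 (minus strand) and Ctrl at chr8:105933863-105934012 (minus strand).
Cela2a: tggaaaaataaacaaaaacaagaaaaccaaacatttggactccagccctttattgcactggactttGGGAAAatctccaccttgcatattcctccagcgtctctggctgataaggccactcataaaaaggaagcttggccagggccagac
Ctrl: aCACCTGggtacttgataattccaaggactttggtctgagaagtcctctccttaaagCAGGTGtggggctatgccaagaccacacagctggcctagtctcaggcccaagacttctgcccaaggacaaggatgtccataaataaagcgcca
Of 7 acinar windows of 250 bases, for 9 genes, 2 held CACCTG, 3 held TTTCCC and 1 held both. The shares of all 32851 windows were 17.2%, 21.9% and 3.61%. The window with both was that of Cela2a, and its CACCTG match lay outside the 150 bases shown. The window of Ctrl held CACCTG without TTTCCC, so neither stretch shown holds the pair. Whether matches were spaced as a pair was not tested. As for the granule genes, a match describes the letters and is not a site of binding.

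The pancreatic members were close to background in thymocytes. Of the 10, 6 were detected on no thymocyte array, against 1.14% of the 7790 probes with the required signal. The other probes of cluster 3 included Chst1, a carbohydrate sulfotransferase, and Spats2l. Spats2l was at 2500 in tumour 7, 887 in tumour 3 and 567 in tumour 5, tumours 3 and 5 being level at 9.06 log2 units after normalisation. Unlike the enzymes it was at 469 in tumour 10 against 133 and 148 in tumours 8 and 9. In thymocytes it was at 364 and 306 in DP and 76.5 to 158 elsewhere, higher in DP by 3.81 log2 units (SE 0.288, limma adjusted p = 1.34e-06).

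Some members of clusters 5, 9 and 13 were far higher in 1 to 3 tumours than in the rest, and were low in ETP among thymocytes. Cluster 5 held 9 probes, with Ripk4 and Bnip5 as its named members. Of these 9, 5 were tested among stages and 2 were lower in ETP, against 3.68% of all probes tested. ILMN_1213664 of cluster 5 was at 26191 in tumour 1, 21043 in tumour 3 and 20285 in tumour 7, and at 107 to 125 in tumours 2, 4, 5 and 6. ILMN_2454209 followed it, at 22678, 19119.5 and 20832 against 105 to 127. Both were at 107 to 117 in the Rag-deficient tumours and not detected there. Because 4 Rag-proficient tumours shared that level, the groups overlapped. The bound was at least 15.9-fold lower for ILMN_1213664 (limma adjusted p = 0.614). Trbv13-2 (ILMN_2516221), a variable segment of the T cell receptor beta chain, was at 26475 in tumour 6, 2407 in tumour 5, 1822 in tumour 7 and 153 to 849 in the other 4. It was at 145, 129 and 410 in tumours 8 to 10, the last inside the Rag-proficient range, with a difference of -4.14 log2 units (SE 1.47, limma adjusted p = 0.384). All 4 probes of cluster 9 had their highest value in tumour 6. ILMN_2428034, alone in cluster 13, was at 15804 in tumour 2 and at 132 to 648 in the other 6, and at 130 to 149 in Rag-deficient tumours. The tumours with the high values thus differed between clusters 5, 9 and 13.

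In thymocytes ILMN_1213664 was at 93.4 and 91.4 in ETP, 95.0 and 75.7 in TN2, 162 to 253 in TN3a, 608 and 817 in TN3b, 744 to 1188 in TN4, 1543 and 1476 in ISP and 1094 and 1370 in DP. Trbv13-2 was at 194 and 110 in ETP, 665 and 121 in TN2, 571 to 1129 in TN3a, 1326 and 2082 in TN3b, 2004 to 2987 in TN4, 3198 and 2879 in ISP and 2095 and 3697 in DP. Both were low in ETP. Every TN3a array was above both ETP arrays, and every array from TN3b on was higher still. ETP was lower than the other stages by -4.09 log2 units for ILMN_1213664 (SE 0.172, limma adjusted p = 4.33e-09) and by -4.64 for Trbv13-2 (SE 0.253, limma adjusted p = 4.15e-08). Over the 16 thymocyte arrays the members most like Trbv13-2 were ILMN_2416460 (Pearson r 0.997), ILMN_1259713 (0.887), ILMN_1213664 (0.873), ILMN_2454209 (0.873) and ILMN_2428034 (0.871). Over the 7 Rag-proficient tumours the same 5 had correlations with it of 0.999, 0.728, -0.258, -0.237 and -0.063. ILMN_2416460 and ILMN_1259713 were highest in the same tumour as Trbv13-2, and the other 3 were not. Next over the 16 thymocyte arrays came Gm525 (0.863 and 0.855) and Egr1 (0.845), so a high correlation there does not name a receptor segment. The 16 arrays share stages and slides, so these correlations are a description. A further probe named Trbv13-2, ILMN_2431390, which was not a member, was at 14292 to 36773 in Rag-proficient and 30341 to 34153 in Rag-deficient tumours, so that the probes of this name disagree. Of 29 T cell receptor segment probes on the array 1 was a member.

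**Figure D3:**
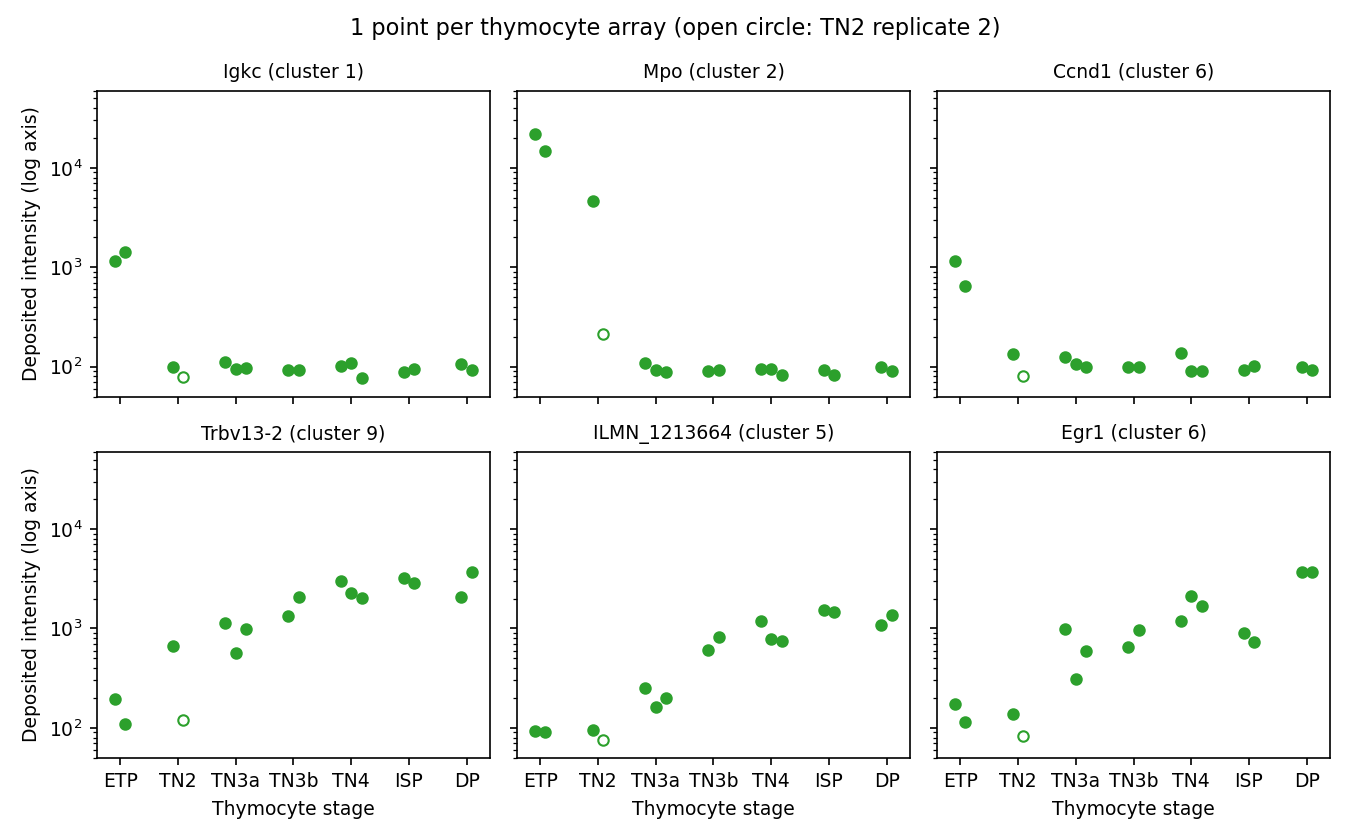
Deposited intensity (log axis) of 6 members in the 7 thymocyte stages, 1 point per array, with the dim TN2 replicate 2 as an open circle. Igkc, Mpo and Ccnd1 are highest in ETP, and Trbv13-2, ILMN_1213664 and Egr1 are low in ETP and higher from TN3b on. Trbv13-2 and ILMN_1213664 are already above ETP in TN3a.

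Cluster 6 held 9 probes, all lowest in tumour 7, among them genes that respond to growth and receptor signals. Ccnd1 (ILMN_2601471), cyclin D1, which drives entry into the cell cycle, was at 315 in tumour 7 and 612 in tumour 1 and ran to 4406 in tumour 5, with a median of 1951. Nrarp, a target and inhibitor of Notch signalling, was at 175 in tumour 7 and at 1132 to 3558 in the other 6. Egr1, an early response transcription factor induced by receptor signals, was at 436 in tumour 7, 828 in tumour 1 and 2206 to 3659 in the other 5. Tumour 7 was therefore low for these genes and tumour 1 next for Ccnd1 and Egr1. Afdn, a protein of cell junctions, was at 181 in tumour 7 and 1327 to 2703 in the others.

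In Rag-deficient tumours, which share slide 3 with tumour 7, Ccnd1 was at 3196, 526 and 2892, Nrarp at 2868, 701 and 856, and Egr1 at 5722, 909 and 3669. Tumour 9 was the lowest of the 3 for each gene. The limma differences were 0.17, 0.05 and 0.48 log2 units, with adjusted p = 0.974, 0.994 and 0.895. ILMN_2539109 was the 1 member with all Rag-deficient values, 14891, 13642 and 9655, above all 7 Rag-proficient values, 1041 to 8442 (difference 1.19, SE 0.65, limma adjusted p = 0.591). Of the 9 genes of a Notch target list, 1 was a member (Nrarp). By limma 0 of its 9 tested probes differed between the tumour groups (1 at an unadjusted p under 0.05), with a median difference of 0.00 against 0.04 over all probes.

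The same genes took opposite courses through the thymus. Ccnd1 was at 1169 and 647 in ETP and at 80.9 to 136 elsewhere, higher in ETP by 4.75 log2 units (SE 0.278, limma adjusted p = 8.03e-08). Nrarp was at 1100 and 575 in ETP, 692 and 92.5 in TN2 and 123 in both DP arrays, higher in ETP by 2.35 log2 units (SE 0.255, limma adjusted p = 3.01e-05; adjusted p = 0.0969 under median scaling). Egr1 was at 173 and 116 in ETP and at 3668 and 3736 in DP, higher in DP by 3.82 log2 units (SE 0.352, limma adjusted p = 6.34e-06). Thus members low together in tumour 7 had their highest level at the first stage for Ccnd1 and Nrarp and at the last for Egr1.

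Cluster 4 held 11 probes, highest in tumour 4 for 8 and lowest in tumour 1 for 7. Ndrg1 (ILMN_2646166), a stress-responsive gene, was at 1631 in tumour 4 and 175 in tumour 1 with a median of 622, and at 1767, 1256 and 1041 in the Rag-deficient tumours, within the Rag-proficient range or just above it. Slpi (a protease inhibitor), Prg2 (the major basic protein of eosinophils), Olfml3, Aldh1b1 (a mitochondrial aldehyde dehydrogenase), Susd4 and Gm266 were its other named members. ILMN_1255416 was at 4747 and 3040.1 in ETP and 113 and 106 in DP, lower in DP by -4.41 log2 units (SE 0.184, limma adjusted p = 2.28e-08), the largest fall in DP among the members.

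Cluster 7 held 8 probes, highest in tumour 1 for 5 and in tumour 6 for 3. Cd163l1, a scavenger receptor family member, was at 14147 in tumour 6, 9366 in tumour 1 and 4326 in tumour 5, and 208 to 831 in the other 4. In Rag-deficient tumours it was at 1584, 418 and 4319, inside that range. In thymocytes it was at 430.4 to 1201 in TN3a, TN3b and TN4 and at 94.4 and 95.5 in DP, lower in DP by -3.25 log2 units (SE 0.313, limma adjusted p = 8.79e-06). Tmsb10 and Cfl1, which bind actin, Rapgef2, an activator of Rap GTPases, Klk8, a secreted protease, and Tmem223 were with it. Klk8 was at 7024 and 5656 in ETP and 303 and 252 in DP.

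Cluster 8 held 5 probes, low in tumours 1, 4 and 7. Ppic, cyclophilin C, was at 3638 in tumour 2 and 1877 in tumour 6, and at 306 to 1014 in the other 5. In tumours 8 to 10 it was at 716, 129 and 3765, beyond the lowest and the highest Rag-proficient intensity. It was lower in DP, at 125 and 95.3, than in the other stages by -3.49 log2 units (SE 0.294, limma adjusted p = 3.14e-06). Smaller clusters held Pdlim4, a LIM domain protein with 873 and 999 in ISP and at most 551 elsewhere, Fbln2, a matrix protein, Acta2, smooth muscle actin, Sall3, a zinc finger transcription factor, and Crhbp, which binds corticotropin-releasing hormone. Acta2 was at 165, 383 and 130 in Rag-deficient and at 173 to 2976 in Rag-proficient tumours (difference -3.47, SE 1.08, limma adjusted p = 0.308). The 4 stromal marker genes summed to 697 to 2819 against 247 to 335. Of their 5 tested probes 3 had an unadjusted p under 0.05, all lower in Rag-deficient tumours. Sparc (ILMN_3136561), a matrix protein, was at 470 to 2063 against 135 to 238, with no overlap (difference -3.58, limma adjusted p = 0.0208). Over all probes tested, 1.83% lay lower without overlap. The Sparc probe ILMN_3059326 was at 172 to 567 against 150 to 152 (difference -2.22, limma adjusted p = 0.163). Level between the groups were the Sparc probe ILMN_1243212 (difference -0.25, limma adjusted p = 0.806) and Col1a2 (ILMN_1253806, difference -0.20, limma adjusted p = 0.911). The part of stromal cells in the Acta2 values was not tested.

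Across the 150 members, the Rag-deficient tumours lay mostly inside the range of the Rag-proficient ones. Of their 450 values 348 were within it, 89 below and 13 above, and 56 of the 89 were in cluster 1. All 3 Rag-deficient values were below all 7 Rag-proficient ones for 11 members and above for 1, against 1.83% and 2% of all probes tested. Without adjustment 22 of the 150 had a limma p under 0.05, all lower in Rag-deficient tumours and 0 higher, against 4.74% of all probes lower and 5.07% higher. The median difference was -0.63 log2 units over the members, against 0.04 over all probes. On no Rag-deficient array were 44 members detected, against 0.629% of the 7790 probes, and 77 were detected on all 3. Members had to reach an intensity of 500 on at least 2 Rag-proficient arrays, with no such demand on the Rag-deficient ones, so lower values there follow in part from the choice, and nothing is read from these counts.

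**Figure D4:**
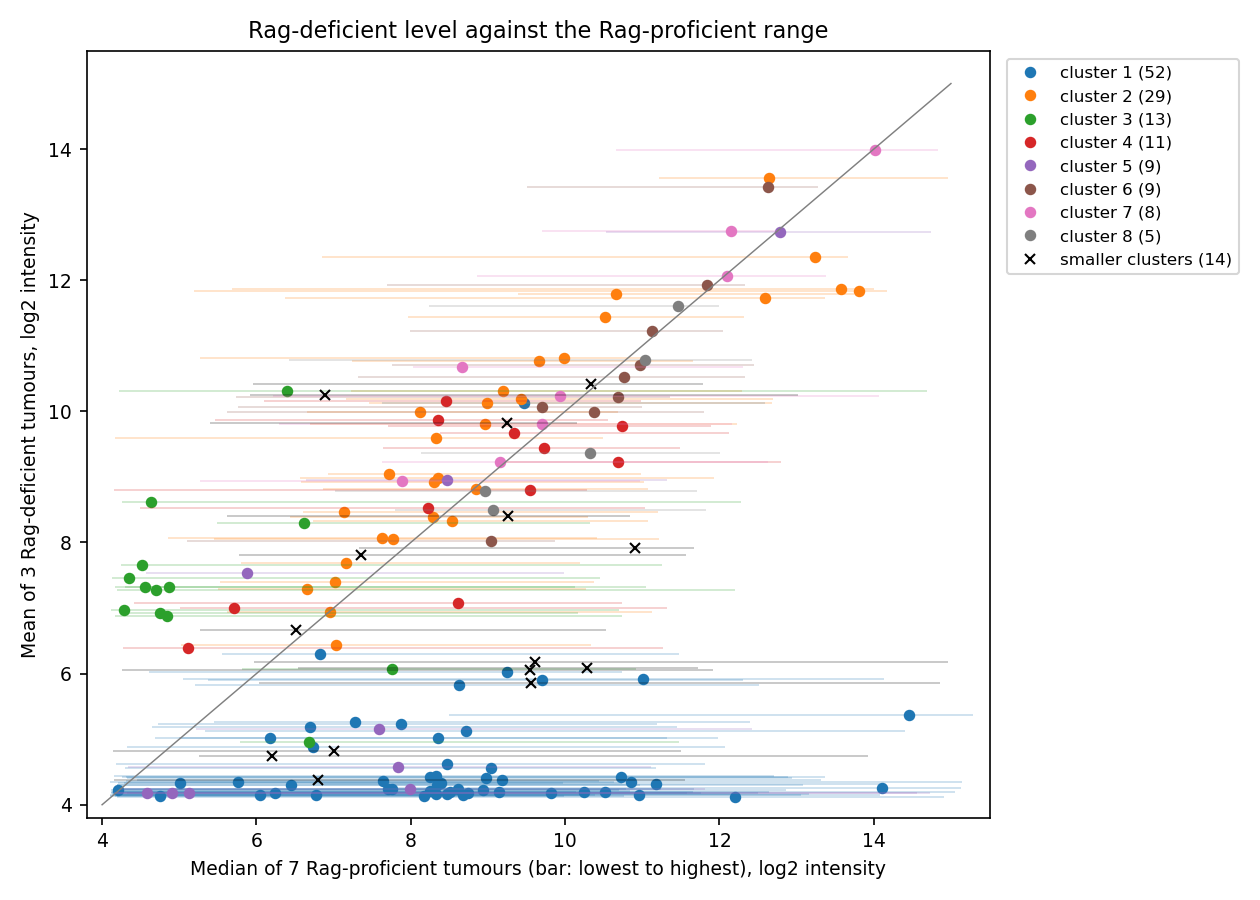
Mean log2 intensity of the 3 Rag-deficient tumours (vertical axis) against the median of the 7 Rag-proficient tumours (horizontal axis), 1 point per member coloured by cluster, with a bar from the lowest to the highest Rag-proficient value and a line of equality. Of the 52 cluster 1 points, 37 are probes detected on no Rag-deficient array and lie along the bottom. The share detected on none was 0.629% over the 7790 probes with the required signal.

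Of the 150 members 90 passed the detection filter of the stage fit and were tested among thymocyte stages, and 37 were detected on no thymocyte array, against 1.14% of the 7790 probes. Among the 90, 56 differed between stages by the limma F test, against 22.8% of all 24735 probes tested. ETP was higher than the other stages for 21 and lower for 19, against 6.39% and 3.68% of all probes. DP was higher for 17 and lower for 20, against 11.1% and 10.5%. Median scaling in place of quantile normalisation gave 33 by the F test and, for DP, 9 higher and 4 lower. Without ETP replicate 2 the 40 ETP calls became 26. Of the 56 members, 18 had their highest mean in ETP, 6 in TN2, 12 in TN3a, 2 in TN3b, 1 in TN4 (Pglyrp1), 4 in ISP and 13 in DP. Leaving out the dim TN2 array gave 62, 42 and 41 calls for the F test, ETP and DP. The shares of all probes called under median scaling or without an array are not given here. A change among the members and a change over all probes therefore cannot be told apart. The T-ALL and thymocyte arrays were normalised separately, so no test was made between tumours and stages.

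**Figure D5:**
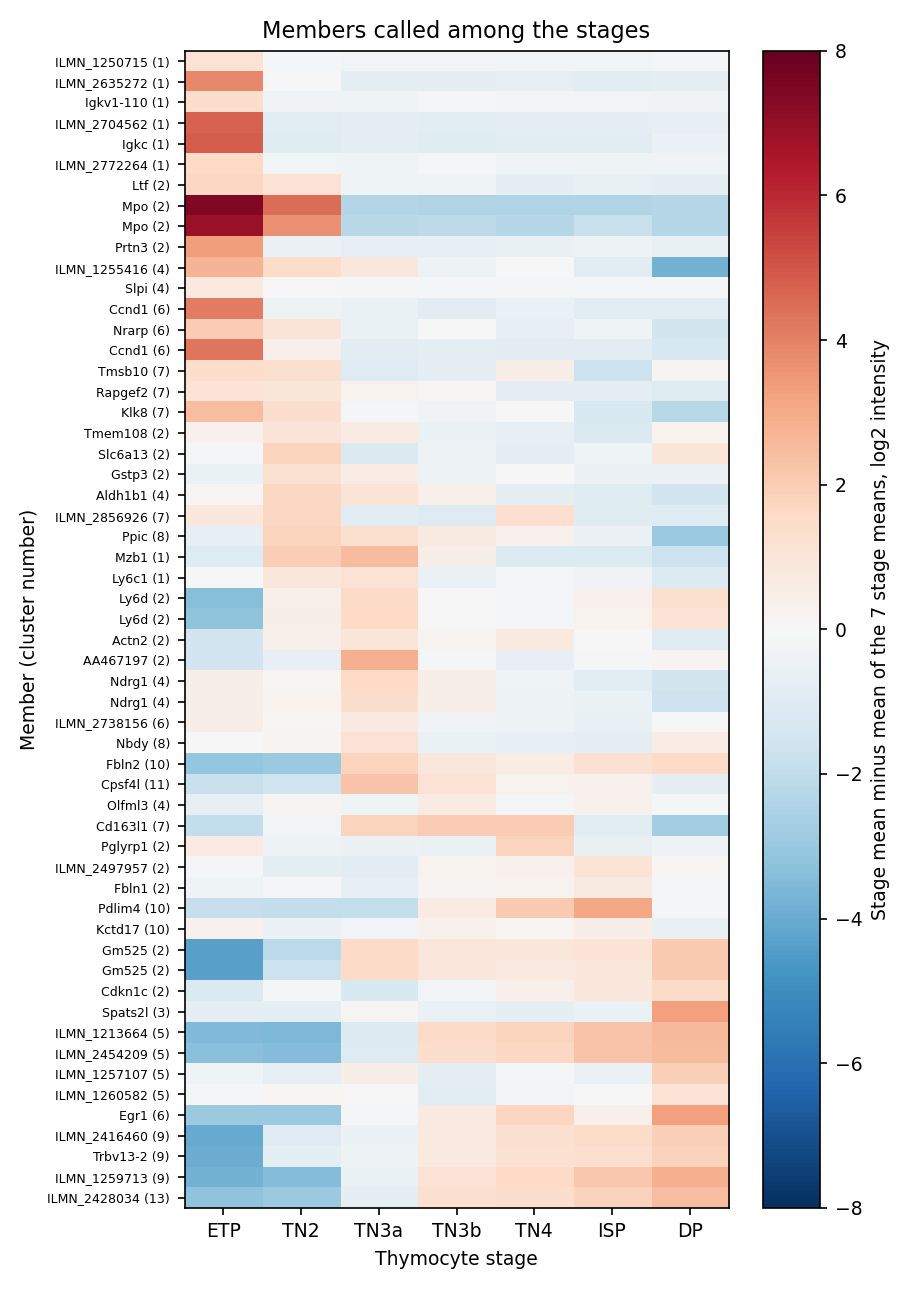
Mean log2 intensity in each of the 7 thymocyte stages (columns) minus the mean of the stage means, for the 56 members that differed between stages (rows, with the cluster number in brackets), ordered by the stage of the highest mean. The 18 members highest in ETP include Mpo, Igkc and Ccnd1, and the 13 highest in DP include Egr1, Spats2l and Trbv13-2.

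Of the other gene lists, the 12 progenitor genes, the 11 T-ALL oncogenes, and the proliferation, interferon and class II lists held 0 members. In the comparison of the tumour groups each of these 5 lists had 0 probes past the limma threshold. At an unadjusted p under 0.05 there were 5 of 12 progenitor probes and 3 of 6 oncogene probes, all lower in Rag-deficient tumours, with Lyl1 and Lmo2 on both lists. The other 3 lists had 1 of 11, 0 of 7 and 1 of 9. Over all probes the share at that p was 9.81% in either direction and 4.74% lower.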

How the data were processed

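Illumina bead arrays measured expression in 10 T-ALL and 16 thymocyte samples. Per the labels' protocols, RNA was isolated with RNAzol B from cell suspensions or sorted cells, and biotinylated cRNA was made with an Ambion kit. The authors deposited a linear intensity per probe, with a detection p-value beside it, per the file headers, in a T-ALL table of 46089 probes and a thymocyte table of 46237 probes. The scanner software is not given in the sources used here. A joint table of log2 values from the authors covers all arrays, but its thymocyte columns do not rank probes as the intensities do when matched by probe ID (Spearman -0.003 to 0.007 across probes), and it served only as an alternative for tumours. In its T-ALL columns the order is that of the intensities (Spearman 1), and how these log2 values were scaled is not given in the sources used here.

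The members and gene lists were chosen with earlier results of these data known, and the acinar, islet and granule lists after the members were seen. The members were chosen on log2 intensity, quantile-normalised over 10 arrays. For all other values, background was corrected with normexp from the detection p-values (offset 16), followed by log2 and quantile normalisation within each table, in R 4.3.3 with limma 3.58.1 (further steps in Python 3.11.15). The T-ALL detection p-values are 2-sided, since nearly all of the dimmest probes have small ones, and were made one-sided around each array's background level. A probe was detected at a one-sided p under 0.01, and kept if detected on 3 T-ALL arrays or 2 thymocyte arrays. Fits used lmFit and eBayes on all probes kept, 22951 for tumours and 24735 for stages, with 8 and 9 residual degrees of freedom, 2-sided tests and Benjamini-Hochberg adjustment at 0.05. The fits were tested on simulated data. Intensities in the text are as deposited, and differences are on the normalised log2 scale. The number of arrays limits the precision. A probe's level is not set against another probe's.

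Of the 46089 probes, 35667 had 1 gene symbol in the platform table and 10422 none. Symbols were brought up to date through RefSeq for 28519 by gene ID, 2634 by accession and 2336 by synonym, and 2178 were kept. Named items were the 10 members with the largest SD, the 2 nearest each large cluster's mean, the 3 on either side of the edge, the largest called differences between tumour groups, the member with the largest lead in each stage, and the 2 largest ETP and DP differences each way. Other members named as examples were chosen after their values were seen. Clusters came from average linkage on 1 minus the correlation at a distance of 0.5. Alternatives were the background correction, scaling, detection filter, slide, limma's options, the joint table, the signal threshold, the measure of spread, and leaving out each array in turn.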

Additional observations from a re-analysis of the deposited data

Results flagged for a closer look

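Among the members named by rule, 5 had 1 Rag-proficient tumour far from the other 6, by Dixon's ratio of that gap to the whole range. Chance gives about 1 in 20 groups such a ratio. Since the members were chosen for their spread over the same 7 values, the ratio is a description here and no test. Gm525 was at a log2 level of 5.19 (ILMN_3137124) and 5.69 (ILMN_3059859) in tumour 6, against 13.04 to 14.17 and 12.94 to 14.01 in the others. In tumour 7, Afdn was at 5.74 against 9.79 to 11.36 in the others, Nrarp at 5.62 against 10.23 to 11.79, and ILMN_2539109 at 9.51 against 11.88 to 13.28. Over all 150 members 11 were past the critical value.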

How the results depend on the processing

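Of the 150 members, 113 to 147 were chosen again with normexp correction, median scaling, signal thresholds of 250 or 1000, or the joint table, and 94 with the median absolute deviation in place of the SD. Leaving out each Rag-proficient tumour in turn kept 117 to 143. The 2 calls between tumour groups became 0 without background correction, 0 without the filter on dim probes, 0 with limma's trend and robust options, 0 on the joint table and 9 on the 4 arrays of slide 3. Leaving out single arrays gave 0 to 3. The causes were not tested. The 56 members called among stages became 33 and the 37 DP calls 13 under median scaling, where 9 were higher and 4 lower. Leaving out single arrays gave 47 to 65 for the F test, 26 to 42 for ETP and 25 to 43 for DP. Apart from slide 3, the share of all probes called under each alternative is not given here. Of the values of single members under these alternatives, 1502 kept their direction and call, 133 kept their direction but were no longer called, and 0 changed sign. The clusters of 5 or more were 8, and 9 at a distance of 0.3 or without background correction. No paired analysis was possible because the labels give no replicate numbers. Only 90 of 150 members could be tested among stages, since the rest were not above background on 2 thymocyte arrays.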

Other observations

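Xist, the RNA of the inactive X chromosome, was at 962 to 2192 on its 4 probes in tumour 7 and at 264 or less in each of the other 9 tumours. The Y-linked Eif2s3y (ILMN_1241001) was at 273 in tumour 7 and at 101 to 936 in the others. Kdm5d (ILMN_1224210), also Y-linked, was at 146 against 120 to 598. The sex of the animals was not tested. Some probes of T cell receptor gamma genes that were not members differed between tumours too. Trgv4 was at 680 to 8406 in Rag-proficient and 199 to 273 in Rag-deficient tumours, and the Tcrg probe ILMN_1215281 at 327 to 1885 and 121 to 143. Over all probes tested, 1.83% lay lower in Rag-deficient tumours without overlap. Trgv7 overlapped, at 145 to 219 and 158 to 199. Trgv5, Trgv6 and the Tcrg probe ILMN_1236143 were not detected in any tumour. Erythroid genes, 3 on the array, summed to a normalised intensity of 303973 to 337735 in Rag-proficient tumours, 273075 to 310358 in Rag-deficient tumours and 255 to 31293 on the thymocyte arrays, which were normalised apart.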
